A study of Homo sapiens with 2 samples.

Results

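HMOX1 and 9 genes that work with it in the NRF2 antioxidant response were followed in RKO cells, a human colorectal carcinoma line, after siRNA against HNRNPM. The 10 genes were taken by symbol from the count table of 54261 features: the transcription factors NFE2L2 (NRF2) and BACH1, the NRF2 inhibitor KEAP1, and HMOX1, FTH1, GCLC, GCLM, TXNRD1, SRXN1 and NQO1, which NRF2 is known to drive. The samples were 2 RNA-seq libraries, 1 per group. The control library came from RKO cells labelled WT and transfected with siNC, a control siRNA, and the other from RKO cells labelled as HNRNPM knockdown and transfected with siHNRNPM. HNRNPM encodes a splicing factor of the hnRNP family. The comparison asks which transcripts differ once this factor is reduced. Neither the siRNA sequences nor the time from transfection to harvest is given in the sources used here.

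NRF2 is a transcription factor that KEAP1, an adaptor of the CUL3 ubiquitin ligase, keeps at a low level by marking it for degradation. Electrophiles and oxidants disable KEAP1, and NRF2 then pairs with small MAF proteins on antioxidant response elements, short DNA sequences near genes for glutathione synthesis, thioredoxin recycling, quinone reduction and iron storage. BACH1 pairs with the same MAF proteins and represses several of these genes, HMOX1 among them, until heme binds BACH1 and removes it. HMOX1 encodes heme oxygenase 1, which opens heme into biliverdin, carbon monoxide and iron.

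Antioxidant response elements are shown first, since they are the sequence by which genes of this kind are recognised. The element's core, TGACNNNGC, was searched on both strands in RefSeq promoter windows (GRCh38.p14) that run from 250 bases before a transcription start to 50 after it. Windows were matched for 8 of the 10 genes, all but HMOX1 and FTH1. Of their 13 windows, 4 held the core, in the genes GCLM, KEAP1 and TXNRD1, and 13.3% of all 35116 promoter windows did. The stretches around the matches follow, 30 bases each on the gene's own strand, with the core in capitals. It reads from the other strand where it starts with GC.
GCLM, chr1:93909445-93909474, minus strand: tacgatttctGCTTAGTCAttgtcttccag
KEAP1, chr19:10502783-10502812, minus strand: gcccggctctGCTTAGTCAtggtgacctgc
KEAP1, chr19:10502806-10502835, minus strand: acttttattgTGACACGGCgggcgcccggc
TXNRD1, chr12:104215670-104215699, plus strand: acacgggctaTGACTTCGCtgttgtcaccg
TXNRD1, chr12:104215761-104215790, plus strand: gcgtccttcgGCTCCGTCAgttcccacagg
TXNRD1, chr12:104286920-104286949, plus strand: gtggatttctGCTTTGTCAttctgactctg
The GCLM stretch and the first KEAP1 stretch hold the same 9 letters. The TXNRD1 matches lie in windows of both of its annotated starts. These are letter matches only, and binding was not measured. Elements farther from a start were not searched, so a window without a match does not show that its gene lacks one.

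The control library held 19931360 reads in genes and the siHNRNPM library 13056118. Levels are given as CPM, counts relative to a library's TMM-scaled size, and each interval is a 95% counting interval that leaves out variation between cultures. HNRNPM, the targeted gene, had 1042 reads (79.6 CPM) with siHNRNPM and 2870 (144 CPM) with siNC, so 55.2% of the control level remained (51.3% to 59.2%). Among markers of the labelled cell type, the epithelial genes EPCAM, KRT8 and KRT18 and the intestinal factor gene CDX2 were read in both libraries, whereas KRT20, CDX1, GUCY2C, CEACAM5, TFF3 and MUC2 had no read in either. Of 18 hepatocyte markers, 13 had a read in the siHNRNPM library and 7 in the control library, with summed levels of 35.7 and 1.11 CPM. Most of these reads came from SERPINA1, AFP and ALB, with 177, 174 and 77 in the siHNRNPM library and 6, 1 and 0 in the control library. GENCODE also lists SERPINA1 outside the primary assembly, to which its reads can go. Every other hepatocyte marker had at most 8 reads in the siHNRNPM library. APOA1, FGG, TTR, HP and RBP4 had no read in either library. The 3 reads that a count of 0 allows equal 0.151 CPM in the control library. Blood and endothelial marker lists each summed to at most 1.36 CPM in either library, and the fibroblast list to 3.59 CPM with siHNRNPM and 1.56 CPM with siNC. The 2 fibroblast markers with a CPM of 1 or more in either library were COL1A1 (21 reads against 13) and COL1A2 (14 against 8).

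HMOX1 was the member with the highest ratio. It had 4651 reads with siHNRNPM and 3227 with siNC, or 355 CPM against 162 CPM, although the siHNRNPM library was the smaller one. This is 2.19-fold higher (2.09 to 2.29), a log2 ratio of 1.13 (1.07 to 1.20). The gene (ENSG00000100292.16) is protein-coding and lies on the plus strand at chr22:35380361-35394214 of GRCh38. No gene annotated by GENCODE 29 overlaps it, and it has no copy on an alternate sequence. Among the 2620 features with a CPM of 100 or more in either library, 1 had a higher ratio than HMOX1, and 5, or 0.191%, were at least 2-fold higher with an interval above 1. Of 684 features with a mean CPM within 0.5 log2 units of its own, HMOX1 included, 0 had a higher ratio. The gain came to 193 CPM. Whether the source of the hepatocyte marker reads in the siHNRNPM library has a part in the HMOX1 value was not tested. In RNA from whole cultures, a change in every cell and a change in a share of the cells cannot be told apart.

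TXNRD1, the cytosolic thioredoxin reductase gene, was the other member that stood well above the control. It had 10690 reads with siHNRNPM and 10799 with siNC, or 817 CPM against 543 CPM. The fold was 1.50 (1.46 to 1.54), a log2 ratio of 0.59 (0.55 to 0.63). As a difference in CPM this gain of 274 CPM exceeded that of HMOX1, but CPM also grows with the length of a gene. Per kilobase of merged exons the order was the reverse, with HMOX1 going from 67.5 to 148 and TXNRD1 from 81.0 to 122. TXNRD1 (ENSG00000198431.15) lies on the plus strand at chr12:104215779-104350305, and 28 of the 2620 abundant features had a higher ratio. The counted genes EID3 and RPL18AP3 lie within its span but share no exon base with it. The ratio of HMOX1 was 1.46 times that of TXNRD1 (1.38 to 1.53), a comparison that does not depend on scaling.

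No joint shift of the 10 genes went with HMOX1. A gene was counted as higher or lower when it was at least 25% above or 20% below the control and its interval excluded a ratio of 1. By this rule 2 of the 10 were higher (HMOX1 and TXNRD1), against 10.5% of the 12925 features with a CPM of 1 or more in either library. Lower were 2 (NFE2L2 and GCLC), against 12.2%. The other 6 met neither. All 10 passed the CPM minimum. HMOX1 alone reached 2-fold, against 2.45% of all features higher and 1.49% lower. The median log2 ratio of the 10 genes was 0.00, with quartiles of -0.21 and 0.16, and that of all measured features was -0.01, with quartiles of -0.21 and 0.18.

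**Figure D1:**
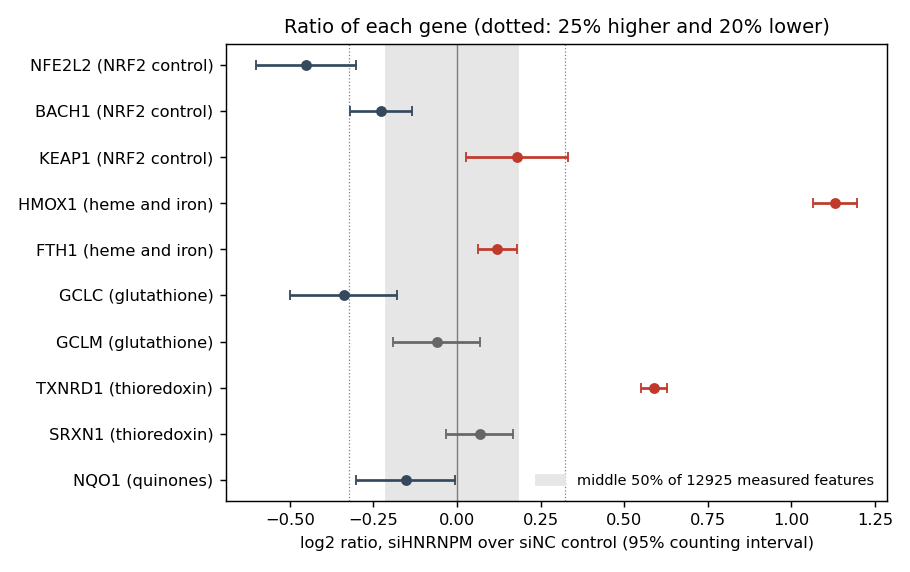
Log2 ratio of each of the 10 genes, siHNRNPM over siNC control, with 95% counting intervals from 1 library per group; red marks intervals above 0, dark blue below 0 and grey those that span 0. HMOX1 (1.13) and TXNRD1 (0.59) stand to the right of the grey band that holds the middle 50% of all 12925 measured features, and NFE2L2 (-0.45) and GCLC (-0.34) to the left of the line at 20% lower.

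**Figure D2:**
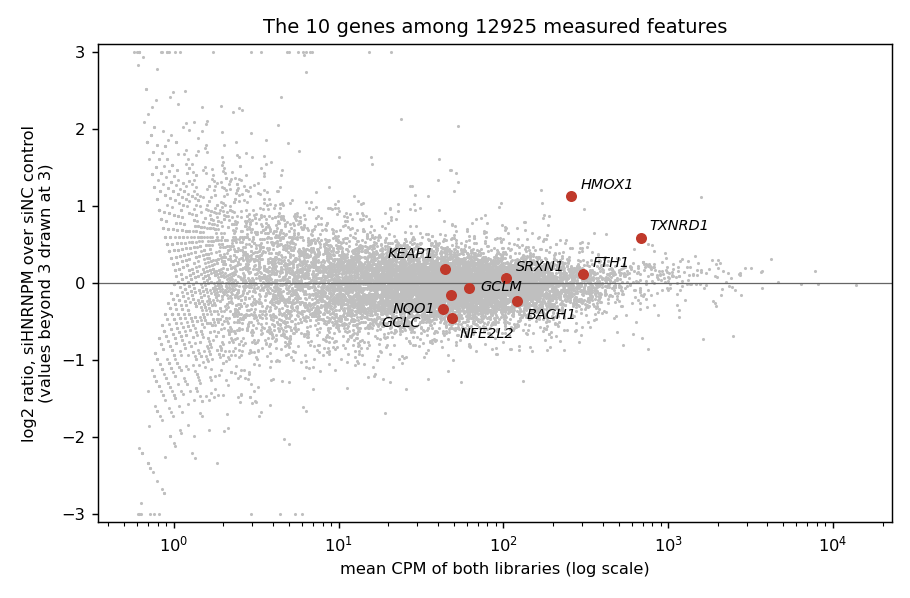
Log2 ratio against mean CPM (log axis) for all 12925 measured features in grey, with ratios beyond 3 drawn at 3, and the 10 genes in red. HMOX1 lies above the cloud of features with like levels, while 8 of the 10 genes lie between -0.45 and 0.18.

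The genes that control the response were as follows. NFE2L2, the NRF2 gene itself, was lower in the siHNRNPM library, with 541 reads against 1123, or 41.3 CPM against 56.5 CPM. It stood at 73.2% of the control level (65.9% to 81.2%), a log2 ratio of -0.45. Of 2533 features whose mean CPM lay within 0.5 log2 units of its own, 123 had a lower ratio. NFE2L2 (ENSG00000116044.15) lies on the minus strand at chr2:177227595-177392697. AGPS, on the opposite strand, shares 54 exon bases with it, and without known strand use such reads cannot be told apart.

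BACH1, the repressor, was 0.85-fold of the control (0.80 to 0.91), with 1465 reads against 2606 and 112 CPM against 131 CPM. Its log2 ratio of -0.23 excluded 0 but did not reach the rule. It lies on the plus strand at chr21:29194071-29630751 (ENSG00000156273.15). KEAP1, which presents NRF2 for degradation, had 618 reads against 829, or 47.2 CPM against 41.7 CPM. This is 1.13-fold (1.02 to 1.26), a log2 ratio of 0.18, short of the rule on the higher side. KEAP1 (ENSG00000079999.13) lies on the minus strand at chr19:10486120-10503741. The ratios of the activator and its inhibitor lay on opposite sides of 1. The NFE2L2 ratio was 0.65 times that of KEAP1 (0.56 to 0.75) and 0.86 times that of BACH1 (0.76 to 0.97). Protein levels of NRF2, on which KEAP1 acts, were not measured.

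FTH1 encodes the heavy chain of ferritin, which stores the iron that heme breakdown releases. It had 4158 reads with siHNRNPM and 5812 with siNC, or 318 CPM against 292 CPM. The fold was 1.09 (1.04 to 1.13), which excluded 1 but stayed under the rule. The gene lies on the minus strand at chr11:61959718-61967660 (ENSG00000167996.15). It has many processed pseudogenes with which reads can be shared. The 26 listed under its name held 66 and 103 reads, equal to 1.59% and 1.77% of its own count. BEST1, on the opposite strand, shares 1267 exon bases but had 3 reads and 0.

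GCLC and GCLM encode the catalytic and the modifier subunit of glutamate-cysteine ligase, the first enzyme of glutathione synthesis. GCLC was lower, with 496 reads against 953, or 37.9 CPM against 47.9 CPM. It stood at 79.1% of the control (70.8% to 88.2%), a log2 ratio of -0.34, just past the rule. With upper-quartile scaling its log2 ratio was -0.31, and with the control library thinned to equal depth -0.27, both inside the rule's limit, so that only NFE2L2 remained lower. GCLM had 797 reads against 1263, or 60.9 CPM against 63.5 CPM, and its interval (0.88-fold to 1.05-fold) spanned 1. The GCLM ratio was 1.21 times that of GCLC (1.05 to 1.40), so the subunits differed beyond counting error. GCLC (ENSG00000001084.12) lies at chr6:53497341-53616970 and GCLM (ENSG00000023909.9) at chr1:93885205-93909456, both on the minus strand.

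SRXN1 encodes sulfiredoxin, which restores over-oxidised peroxiredoxins. It had 1398 reads against 2027, or 107 CPM against 102 CPM, and its fold of 1.05 (0.98 to 1.12) did not exclude 1. The TXNRD1 ratio was 1.44 times that of SRXN1 (1.33 to 1.55). NQO1 encodes a quinone reductase and is a standard readout of NRF2 activity. It had 595 reads against 1005, or 45.5 CPM against 50.5 CPM, at 89.9% of the control (81.1% to 99.6%). The NQO1 interval spanned 1 with total-count or upper-quartile scaling. The TXNRD1 ratio was 1.67 times that of NQO1 (1.50 to 1.86). SRXN1 (ENSG00000271303.1) lies at chr20:646615-653370 and NQO1 (ENSG00000181019.12) at chr16:69706996-69726951, both on the minus strand.

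HMOX1 had the highest ratio of the members, which were chosen with earlier results of these data known. The direction of its comparisons with the other 9 members was therefore given beforehand and is not a result. What the 9 comparisons show is the size of each gap, which exceeded counting error in each. After TXNRD1 the nearest was KEAP1, with HMOX1 at 1.93 times its ratio (1.72 to 2.17), and the farthest was NFE2L2, at 2.99 times (2.67 to 3.35). Against GCLC, NQO1, GCLM, SRXN1 and FTH1, all known as NRF2 targets, the value was 2.77, 2.43, 2.28, 2.09 and 2.01. All 14 such comparisons made had an interval that excluded 1, but they are a chosen part of all pairs, 9 of them with HMOX1. Pairs with close ratios, such as SRXN1 and FTH1, were not compared.

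Levels of different genes were compared as RPKM, CPM per kilobase of merged exons. In the control library the order was FTH1 (144 RPKM), TXNRD1 (81.0), HMOX1 (67.5), SRXN1 (37.8), BACH1 (17.0), NQO1 (15.5), GCLM (11.7), KEAP1 (11.1), NFE2L2 (9.45) and GCLC (5.54). The counting intervals of BACH1 and NQO1 overlapped, as did those of GCLM and KEAP1. In the siHNRNPM library HMOX1 reached 148 RPKM and stood second, between FTH1 (157) and TXNRD1 (122), and its counting interval overlapped that of FTH1. With the longest transcript as the length, FTH1, TXNRD1, HMOX1 and SRXN1 held the same places in both libraries, with HMOX1 at 195 and TXNRD1 at 191 RPKM in the siHNRNPM library, while NFE2L2 moved up to sixth in the control library. The RPKM of TXNRD1, GCLC, FTH1 and NFE2L2 was over 1.5 times higher by that length, as their merged exons are much longer than any single transcript.

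**Figure D3:**
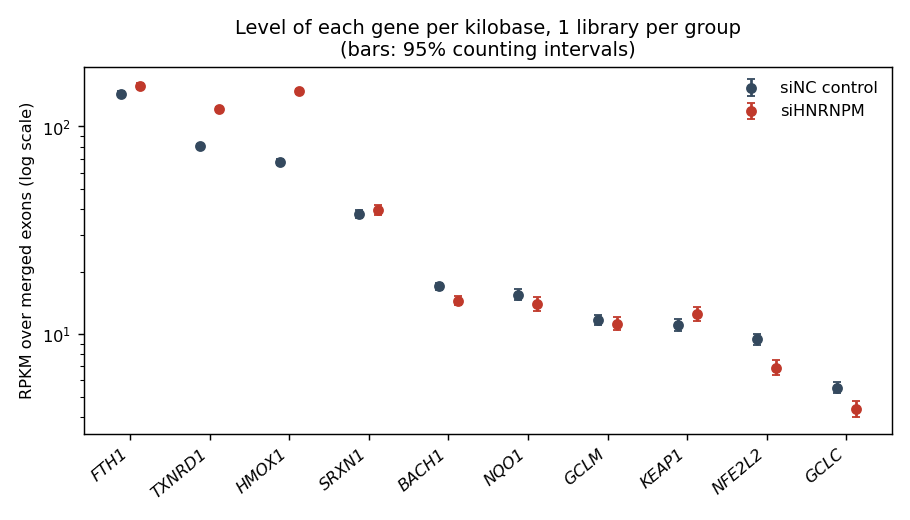
RPKM over merged exons (log axis) of the 10 genes in the siNC control library (dark blue) and the siHNRNPM library (red), 1 library per group, ordered by the control level, with 95% counting intervals. HMOX1 moves from 67.5 to 148 RPKM and passes TXNRD1, which moves from 81.0 to 122 RPKM.

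The wider pathway was described by 7 lists with 188 further genes, of which 163 passed the CPM minimum. By the same rule 12 were higher and 27 lower, beside 10.5% and 12.2% of all measured features, and their median log2 ratio was -0.05, beside -0.01. The same shares of all features stand beside each list count that follows. The rest of NRF2 control came to 0 higher and 4 lower of 23 measured. SQSTM1, whose p62 protein draws KEAP1 into autophagy, was at 283 CPM against 285 CPM, and CUL3, the ligase scaffold, at 77.8 CPM against 82.8 CPM. Both intervals spanned 1. The small MAF genes MAFF and MAFG had log2 ratios of -0.26 and -0.22 and MAFK 0.19, each with an interval that excluded 0 but short of the rule. NFE2L1, a relative of NRF2 that drives proteasome genes, had 0.31 (0.24 to 0.38), also under the rule. Among those lower by the rule were the related NFE2L3 at -0.66 (-0.88 to -0.44), AMER1 (WTX) at -0.65, and BTRC, a ligase adaptor for NRF2, at -0.33. USP11, a deubiquitinase gene, was at 0.32 (0.08 to 0.55), just under it. The count of higher genes was 1 with total-count scaling or thinning and 2 with upper-quartile scaling, where BTRC was inside the rule's limit.

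The glutathione list had 3 higher and 6 lower of 32 measured, with a median log2 ratio of 0.00. SLC7A11, the cystine transporter gene that supplies cysteine for glutathione, was higher at 30.9 CPM against 22.3 CPM (log2 ratio 0.47, 0.27 to 0.66). The mitochondrial glutaredoxin gene GLRX2 was higher at 0.43 (0.07 to 0.79). GSS, for the second step of synthesis, spanned 0 at -0.04, and GSR, which recycles oxidised glutathione, was at -0.11. The glutathione transferase genes GSTO1 and GSTM4 were lower at -0.66 (-0.73 to -0.58) and -0.52 (-0.74 to -0.30). GLO1, whose enzyme clears methylglyoxal with glutathione, was lower at 215 CPM against 331 CPM (-0.62, -0.69 to -0.56). The count of higher genes was 5 with total-count or upper-quartile scaling, or with the control library thinned.

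The thioredoxin and peroxiredoxin list, which also holds superoxide dismutases and sestrins, had 5 higher and 2 lower of 24 measured, with a median of 0.09. SOD2, the mitochondrial superoxide dismutase gene, was higher at 224 CPM against 126 CPM (0.84, 0.76 to 0.92). PRDX4, the peroxiredoxin gene of the endoplasmic reticulum, was higher at 128 CPM against 89.2 CPM (0.52, 0.42 to 0.62). OSGIN1, MSRB1 and SESN1 were higher at 0.40, 0.34 and 0.33. TXN, the substrate of TXNRD1, was at 351 CPM against 317 CPM (0.15, 0.09 to 0.20). PRDX1 was at 375 CPM against 385 CPM with an interval that spanned 0, and TXNIP, which binds thioredoxin, was at -0.09. TXN, PRDX1 and TXNIP were within the rule's limits. The count of lower genes was 1 with thinning and 0 at a CPM of 5 or more. MMACHC, on the opposite strand, shares 379 exon bases with PRDX1.

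The list for the supply of NADPH, which these reductases consume, had 0 higher and 1 lower of 13 measured (median -0.04). The lower gene was NADK2, for mitochondrial NAD kinase, at -0.52 (-0.69 to -0.35). PGD, for an enzyme of the pentose phosphate pathway, was at 0.22 (0.15 to 0.28). IDH1 and NADK were at -0.29 and -0.26, and MTHFD2 at 0.22, all under the rule.

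The quinone, carbonyl and xenobiotic list had 0 higher and 6 lower of 23 measured, with a median of -0.15. ABCG2, a drug efflux pump gene, was lower with 25 reads against 114 (-1.59, -2.27 to -0.95). CBR4, EPHX2, CYP2S1 and NQO2 were lower at -0.76, -0.60, -0.55 and -0.39. Several genes often used to report NRF2 activity were near absent in both libraries. AKR1B10 and AKR1C1 had 1 read in each, and AKR1C2, ALDH3A1 and the glutathione peroxidase gene GPX2 had none in either. These 5 were chosen after their values were seen. With upper-quartile scaling 1 gene of the list was higher.

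The heme list had 3 higher and 3 lower of 24 measured (median -0.05). PPOX, for the step before the last of heme synthesis, was higher at 0.53 (0.33 to 0.73), and SLC25A38, for the mitochondrial glycine carrier that feeds it, at 0.45 (0.30 to 0.61). ALAD, for an early step, was lower at -0.47 (-0.65 to -0.30). NR1D1, for the heme-binding receptor REV-ERB alpha, was lower at -0.41 (-0.80 to -0.02), though its interval spanned 0 with upper-quartile scaling. Downstream of HMOX1, the biliverdin reductase genes BLVRA (37.8 CPM in both libraries) and BLVRB (49.3 CPM against 44.5 CPM) had intervals that spanned 0. HMOX2, the constitutive heme oxygenase gene, had 7 reads and 8. GENCODE also lists HMOX2 transcripts outside the primary assembly, to which its reads can go, so no level is read from it.

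The iron list had 1 higher and 5 lower of 25 measured, with a median of -0.14. FTL, the light chain of ferritin, was at 2596 CPM against 2900 CPM (-0.16, -0.18 to -0.14), so the 2 ferritin subunit genes had ratios of opposite sign, both short of the rule. TFRC, the transferrin receptor gene, was at 243 CPM against 226 CPM (0.11, 0.04 to 0.18). Lower were SLC11A2, an iron importer gene, at -0.46 (-0.57 to -0.35), and ACO1, for iron regulatory protein 1, at -0.45 (-0.56 to -0.34). EPAS1, STEAP2 and CISD1 were lower at -0.48, -0.37 and -0.34. SLC40A1, the iron exporter gene, had 0 reads and 1. It and the single higher gene, TFR2 at 0.33, were chosen after their values were seen. TFR2 was short of the rule with DESeq2 size factors, and CISD1 with upper-quartile scaling.

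**Figure D4:**
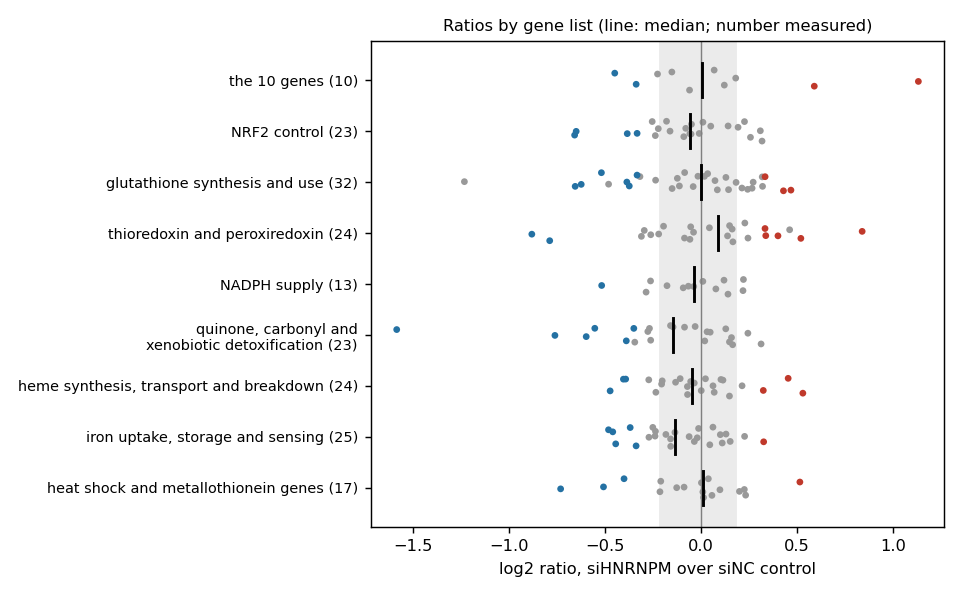
Log2 ratios, siHNRNPM over siNC control, of the measured genes of each list (number in brackets); red and blue dots are at least 25% higher or 20% lower with an interval that excludes 0, black lines are medians and the grey band holds the middle 50% of all features. HMOX1, at 1.13, is the dot farthest to the right, and the medians of the lists lie between -0.15 and 0.09.

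By nearness of log2 ratio over the 2 libraries, the protein-coding genes with a CPM of 100 or more most like HMOX1 were SEMA3A (1.20), MRFAP1 (1.03) and HARS (0.98). With 2 libraries this likeness rests on 1 ratio per gene.

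The neighbours of HMOX1 on chromosome 22 were measured as well. On the side of its start, TOM1 had a log2 ratio of -0.27 (-0.55 to 0.01), HMGXB4 0.21 (0.07 to 0.34) and FBXO7 -0.14. FBXO7 lies far off, at chr22:32474676-32498829, whereas HMOX1 starts at 35380361. Beyond its end, MCM5, a replication helicase gene, had 0.23 (0.10 to 0.35), APOL6 -0.45 (-0.79 to -0.12) and RBFOX2 0.23 (0.01 to 0.45). None of the 6 nearest measured protein-coding genes was 25% higher or more.

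The sequence GTGAGAA, an exact match on the transcript strand, was not present in the longest annotated 3′ UTR of any of the 10 genes. Of 10800 measured protein-coding genes searched, 16.4% held it, so its absence from 10 genes is not read as a result about them. No link of this sequence to the siRNA or to HNRNPM was tested.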

How the data were processed

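The authors deposited raw counts of reads for each gene symbol, not normalized. HISAT2 2.0.4 and GRCh38 are listed, without a role, per the submitters' processing notes. The counter, annotation, use of strand and handling of multi-mapped reads are not given in the sources used here, and counts per gene do not show splicing. Each column was tied to its library by title and grouped by the treatment label.

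Counts were scaled with TMM (edgeR 4.0.16, R 4.3.3). Intervals are exact Clopper-Pearson intervals of the split of a gene's reads between the libraries, and exact Poisson intervals for RPKM. Ratios of 2 members were compared by the exact conditional interval of the odds ratio. With 1 library per group there is no test and no p-value, and amplified reads are not independent molecules, so intervals and floors cover counting error only. Features with a CPM of 1 or more in either library were kept (12925 of 54261).

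Named were the 10 genes, fixed partners, and up to 5 genes per list with the largest absolute log2 ratio, a CPM of 5 or more and an interval excluding 0. Some genes that the rule names are not reported here. The members and lists were chosen with earlier results of these data known. Positions, exon lengths and 3′ UTRs came from GENCODE 29 and promoters from RefSeq. The procedure was tested on simulated counts with counting error only. That test does not bear on variation between cultures. Alternatives were other scalings, thinning, other filters and another gene length.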

Additional observations from a re-analysis of the deposited data

How the results depend on the processing

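Across 4 other ways of scaling or thinning, the log2 ratio of HMOX1 ran from 1.12 to 1.16, TXNRD1 from 0.58 to 0.62, NFE2L2 from -0.46 to -0.42 and HNRNPM from -0.87 to -0.83. None of the 10 genes changed sign. The interval of SRXN1 lay above 0 with upper-quartile scaling, and that of NQO1 spanned 0 with total-count and upper-quartile scaling. The number of the 10 genes at least 20% lower was 1 with upper-quartile scaling and 1 with the control library thinned. Over all features, at least 2-fold higher and lower were 602 and 301 without a CPM filter, 70 and 50 at a CPM of 5 or more, and 144 and 126 among protein-coding genes. The 10 kb upstream search was not run, since no genome sequence was used here. No paired analysis was possible because each group has 1 library, and for the same reason no library could be left out. Depth limits genes with few reads, since the 3 reads that a count of 0 allows equal 0.229 CPM with siHNRNPM and 0.151 CPM with siNC.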

Other observations

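HMOX1 is also known to respond to heat shock and to metals, so genes of these responses were listed. Of 17 measured, 1 was higher and 3 were lower by the rule of 25% higher or 20% lower, beside 10.5% and 12.2% of all measured features, and the median log2 ratio was 0.01. The heat shock genes HSPA1A, with no read in either library, and HSPA1B, with 5 reads against 8, fell below the CPM minimum. GENCODE also lists both outside the primary assembly, so no level is read from them. These 2 were named after their values were seen. MT2A, an abundant metallothionein gene, was at 1128 CPM with siHNRNPM and 1127 CPM with siNC. MT1F was higher at 0.51 (0.05 to 0.98), and metallothionein genes are near-identical, so reads may be split between them. MTF1, the metal-sensing transcription factor gene, was lower at 27.6 CPM against 45.8 CPM (-0.73, -0.91 to -0.55). The chaperone genes HSPD1 and HSPH1 were lower at -0.51 and -0.40, while HSPB1 was at 0.23 (0.15 to 0.32), under the rule. HSF1, the heat shock factor gene, was at 123 CPM against 122 CPM. GENCODE also lists HSF1 transcripts outside the primary assembly, to which its reads can go.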
